A study of Schizosaccharomyces pombe with 17 samples.

Results

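The strain rrp6-cat dis3-4 of fission yeast (Schizosaccharomyces pombe) carries the alleles rrp6-cat and dis3-4 of the genes for both exonucleases of the nuclear RNA exosome, and it was compared with itself after 1 h at 30 °C and before, at 23 °C. The comparison rests on 4 of the 17 samples of the series, 2 libraries at each temperature, taken by their labelled genotype and growth temperature. RNA with a polyA tail was sequenced in 14 libraries, 7 groups of 2, and is given as FPKM, a level per transcript length and per library. The groups were rrp6-cat dis3-4 (strain JLP1863) at 30 °C and at 23 °C, the single mutant dis3-4 (JT449) at 30 °C and at 23 °C, and rrp6-cat (JLP1708), rrp6Δ (JLP1704) and wild type (CHP1365), which were grown at 32 °C. Cells grew in rich YES medium to mid-log phase, and both dis3-4 strains are temperature-sensitive per the labels. The strain rrp6-cat dis3-4 is a single named strain, so a second isolate does not enter the comparison, and it shares the dis3-4 allele with the single mutant. Wild type and rrp6-cat cells at 23 °C or shifted to 30 °C are not analysed here, so the response of cells with an intact exosome to the shift is not measured. Of 7027 features in the table, 6083 averaged 1 FPKM or more across the 14 libraries and were tested.

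The RNA exosome is a ring of subunits that passes RNA to the 3′ to 5′ exonuclease Dis3, and in the nucleus it also carries the exonuclease Rrp6. It trims precursors of ribosomal, small nucleolar and small nuclear RNA and removes noncoding transcripts. In growing fission yeast it also removes meiotic mRNAs that the RNA-binding protein Mmi1 marks. Cofactors such as the TRAMP complex, the MTREC complex and Mpp6 bring substrates to it. A temperature-sensitive allele gives a protein that loses function when the temperature is raised, so a shift is a common way to look at RNA that builds up soon after the loss.

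No feature was called as different between 30 °C and 23 °C in rrp6-cat dis3-4. Of 6083 features with a mean of at least 1 FPKM, limma called 0 at an adjusted p under 0.05, which is 0.00% of those tested, and the smallest adjusted p was 1.0. At an unadjusted p under 0.05 there were 96 features, or 1.58%, of which 75 (1.23%) were higher and 21 (0.345%) were lower at 30 °C. After median-of-ratios size factors the same threshold held 64 higher and 49 lower, with 0 called. The differences of the middle 90% of features, on the log2(FPKM + 1) scale, ran between -0.48 and 0.65, and 96.2% of the estimates lay within a 2-fold change. The 95% interval of limma lay wholly within 2-fold for 47.6% of features, for 72.1% of those with a mean of at least 50 FPKM and for 0.2% of those between 1 and 5 FPKM. The median feature was 0.08 higher at 30 °C, which size factors moved to 0.00, so small shifts of gene groups are read against that value. In bulk RNA, fewer cells that hold a transcript and less of it in each cell cannot be told apart.

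**Figure D1:**
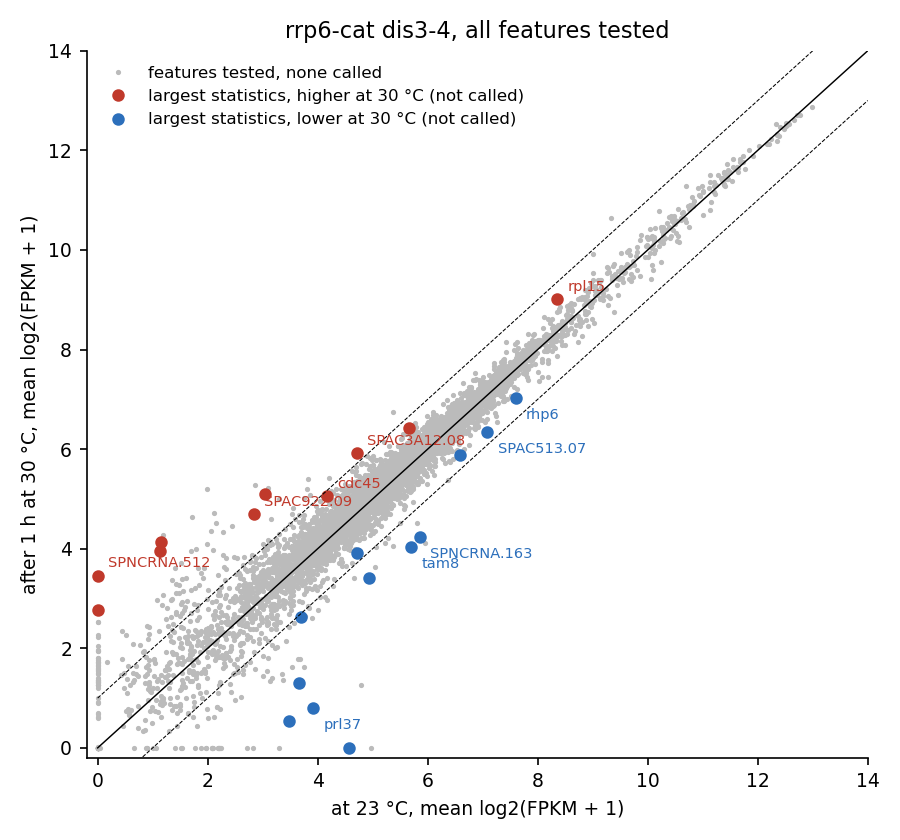
Mean log2(FPKM + 1) of the 2 rrp6-cat dis3-4 libraries after 1 h at 30 °C (vertical axis) and of the 2 at 23 °C (horizontal axis) for the 6083 features tested, with the solid line at equality and the dashed lines at 2-fold. Coloured points are the features with the largest limma statistics in each direction among those that averaged at least 5 FPKM at either temperature and whose groups did not overlap, none of them called; features off the dashed lines are mostly of low FPKM.

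Libraries of different temperatures lay about as close to each other as replicates did. Log2(FPKM + 1) correlated at 0.956 between the 30 °C replicates and at 0.941 between the 23 °C replicates, across features, which are not independent of each other. The 4 pairs made of a 30 °C and a 23 °C library correlated at 0.944 to 0.953, between those 2 values. The SD of the log2 difference was 0.575 for the 30 °C replicates, 0.676 for the 23 °C replicates and 0.602 to 0.654 for the 4 mixed pairs. Libraries of other genotypes stood further away, at 0.880 to 0.915 for dis3-4 at 30 °C, 0.889 to 0.914 for dis3-4 at 23 °C, 0.886 to 0.925 for rrp6-cat, 0.886 to 0.897 for the libraries labelled rrp6Δ and 0.794 to 0.850 for wild type. In dis3-4 alone, the 30 °C replicates correlated at 0.927 and the 23 °C replicates at 0.935. The 4 mixed pairs there were at 0.915 to 0.940, which reaches both below and above the replicate values. Mixed pairs with 30 °C replicate 2 were at 0.925 and 0.915, and those with 30 °C replicate 1 at 0.940 and 0.933.

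**Figure D2:**
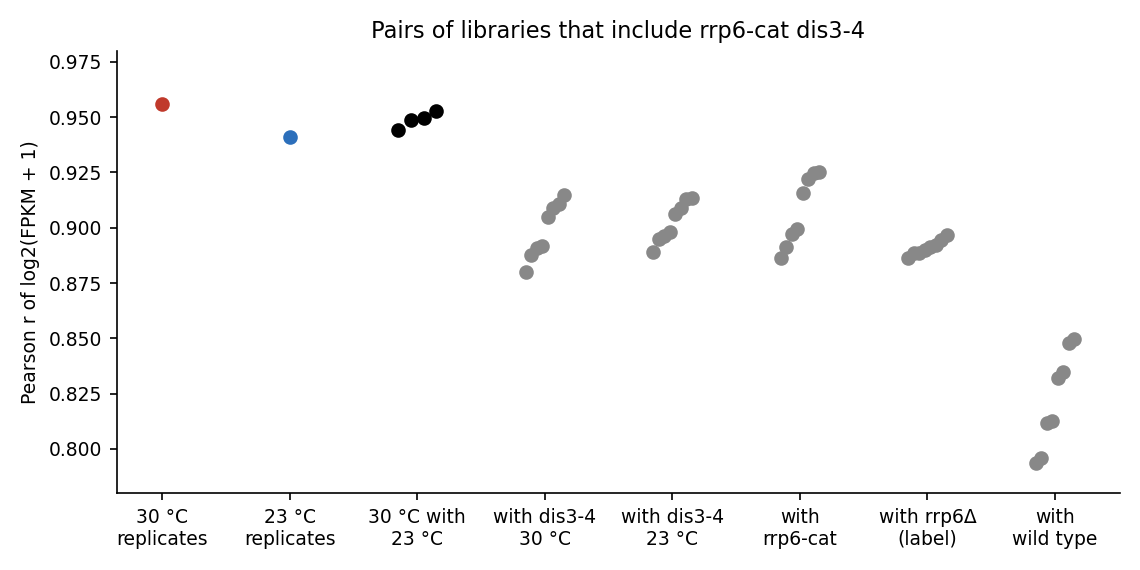
Pearson correlation of log2(FPKM + 1) across the 6083 features (vertical axis) for every pair of libraries that holds at least 1 rrp6-cat dis3-4 library, 1 point per pair. The 4 pairs across temperature lie at 0.944 to 0.953, between the 30 °C replicates at 0.956 and the 23 °C replicates at 0.941, and every pair with another genotype lies lower.

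Depth can be read only in relative terms, from the commonest ratio between low FPKM values of 2 libraries. On that measure the 30 °C libraries of rrp6-cat dis3-4 had depths of 0.811 and 1.00 and the 23 °C libraries 0.668 and 0.563, relative to the deepest of the 4. For dis3-4 the order was reversed, with 0.615 and 0.45 at 30 °C and 0.787 and 0.97 at 23 °C. Replicates of rrp6-cat dis3-4 varied least of all groups, with a mean square of log2 values of 0.166 at 30 °C and 0.232 at 23 °C, against 0.284 to 0.334 in the dis3-4 and rrp6 mutant groups and 0.663 in wild type. The fit shares 1 spread over all groups, so it is wider than this strain's own. With only the 4 compared libraries in the fit, 323 features lay at an unadjusted p under 0.05 and 0 were called.

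The exosome's own mRNAs came first, since the strain is mutant in 2 of them. rrp6 (SPAC1F3.01), which encodes the nuclear exonuclease, was at 117 and 105 FPKM at 30 °C and 92.8 and 109.6 FPKM at 23 °C. Its log2 difference was 0.13 (SE 0.36, limma unadjusted p = 0.72), and the groups overlapped. dis3 (SPBC26H8.10), which encodes the exonuclease that the temperature-sensitive allele affects, was at 71.45 and 71.6 FPKM at 30 °C and 81.9 and 79.2 FPKM at 23 °C. Both 30 °C libraries were below both 23 °C libraries, with a log2 difference of -0.17 (SE 0.28, unadjusted p = 0.56). The gene overlaps a neighbour on the opposite strand, and although the library kit keeps strand, the sources used here do not say whether counting used it. The labels name no deletion in this strain, so these levels do not test its genotype. The libraries labelled rrp6Δ held rrp6 at 179 and 128 FPKM, so that label is used here only as a label.

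Among the 13 exosome subunits and partners, 0 were called, 6 stood above at 30 °C in both libraries and 2 below. The same holds for 24.8% of all features above and 10.6% below, and for 17.1% and 17.5% after size factors, which left the exosome counts at 6 and 2. mpp6 (SPACUNK4.11c), an RNA-binding cofactor of the nuclear exosome, was at 100.5 and 101 FPKM at 30 °C and 60.75 and 64.6 FPKM at 23 °C. Its log2 difference of 0.68 (SE 0.29) had the 1 unadjusted p under 0.05 in the list, 0.037. rrp45, a subunit of the ring, was at 55.4 and 55.1 FPKM at 30 °C against 43.8 and 35.6 FPKM at 23 °C, and csl4, a subunit of its cap, at 205 and 197 FPKM at 30 °C against 164.5 and 157 FPKM at 23 °C. Of the 16 genes of TRAMP, MTREC and linked surveillance factors, 9 stood above at 30 °C in both libraries and 1 below, which became 6 and 4 after size factors. rmn1, which encodes an RNA-binding subunit of MTREC, was at 68.3 and 63.4 FPKM at 30 °C against 49.9 and 50.8 FPKM at 23 °C. cid14, the poly(A) polymerase of TRAMP, was at 65.7 and 83.8 FPKM at 30 °C against 57.1 and 56.2 FPKM at 23 °C. air1, a zinc knuckle subunit of TRAMP, was at 49.1 and 51.9 FPKM at 30 °C against 47.5 and 40 FPKM at 23 °C. The log2 differences were 0.38 (SE 0.25) for rmn1, 0.38 (SE 0.41) for cid14 and 0.21 (SE 0.22) for air1.

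Classes of RNA known as exosome substrates were already high at 23 °C in this strain. Of the 14 tested meiotic mRNAs on the Mmi1 list, 13 were called above wild type in rrp6-cat dis3-4 at 30 °C (of all features 11.7% were called higher) and 13 at 23 °C (9.42%), in comparisons that share the wild type libraries. The median log2 difference from wild type was 2.44 at 30 °C and 2.28 at 23 °C. The rise was not particular to the double mutant. In rrp6-cat, 9 of the 14 were called above wild type (4.88% of all features), with a median of 2.01. Between the temperatures 0 of the 14 were called, 5 stood above at 30 °C in both libraries and 2 below (24.8% and 10.6% of all features), and the median difference was 0.24, or 0.02 without 23 °C replicate 2. Summed over the list, the FPKM were 520 and 620.5 at 30 °C, 537.4 and 458.2 at 23 °C, and 110.2 and 71.7 in wild type. The summed values of the temperatures overlapped and lay far above wild type. Wild type was grown at 32 °C, so genotype and temperature cannot be told apart in that contrast.

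ssm4 (SPAC27D7.13c), a microtubule-binding protein of meiotic prophase, was the 1 member of the Mmi1 list with an unadjusted p under 0.05 between the temperatures. It was at 41.8 and 51.3 FPKM at 30 °C and 26 and 21.5 FPKM at 23 °C, with a log2 difference of 0.94 (SE 0.34, limma unadjusted p = 0.018, adjusted p = 1.0). In dis3-4 alone it was at 28.9 and 28.7 FPKM at 30 °C and 20 and 13.3 FPKM at 23 °C. mei4 (SPBC32H8.11), the forkhead transcription factor of middle meiosis, was at 84 and 106 FPKM at 30 °C and 75.45 and 60.8 FPKM at 23 °C (log2 difference 0.47, SE 0.43). mug10 (SPAC57A10.04) went the other way, at 40.6 and 45.6 FPKM at 30 °C and 58.8 and 51.8 FPKM at 23 °C (log2 difference -0.35, SE 0.29). In dis3-4 the list's median difference was 0.66, with 11 of 14 above at 30 °C in both libraries and none below, against 14.1% and 17.6% of all features. The difference of the 2 strains' shifts was not called for any of the 14 by limma, and 1 had an unadjusted p under 0.05.

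Small nucleolar RNAs, which guide modification of ribosomal RNA and are trimmed by the exosome, gave the same picture. Of 39 tested, 20 were called above wild type at 30 °C and 20 at 23 °C, against 11.7% and 9.42% of all features, with median log2 differences of 4.34 and 4.22. In rrp6-cat 20 were called above wild type (4.88% of all features), with a median of 4.37. Summed FPKM of the class in rrp6-cat dis3-4 were 25760 and 15770.0 at 30 °C and 21070.0 and 23020.0 at 23 °C, against 2064 and 735.9 in wild type. Between the temperatures none was called, and 2 stood above at 30 °C in both libraries and 7 below (24.8% and 10.6% of all features). Size factors left these counts at 2 (5.13%) and 7 (17.9%), against 17.1% and 17.5% of all features. The median difference was -0.15, which turned positive without replicate 2 of either temperature. snR94, of the H/ACA class, was at 181 and 166 FPKM at 30 °C and 261 and 275 FPKM at 23 °C (log2 difference -0.62, SE 0.43). snoR39a, annotated within rlp7 on the same strand, was listed at 0 in both 30 °C libraries, against 48 and 19 FPKM at 23 °C. Its log2 difference of -4.97 had an SE of 2.47, and its dis3-4 replicates at 23 °C were at 136 and 0 FPKM.

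All 7 small nuclear RNA features, among them the spliceosomal RNAs and both U3 genes, were called above wild type at 30 °C and at 23 °C, against 11.7% and 9.42% of all features. In rrp6-cat all 7 were called above wild type as well (4.88% of all features), with a median log2 difference of 3.93. U4 (snu4), a spliceosomal RNA, was at 32.6 and 36.6 FPKM at 30 °C, 47.2 and 54.25 FPKM at 23 °C and 5.97 and 4.88 FPKM in wild type. Its difference between temperatures was -0.54 (SE 0.27, unadjusted p = 0.068), and the 30 °C libraries lay below the 23 °C ones. U3 (snu3), which acts in ribosomal RNA processing, was at 55.2 and 70.3 FPKM at 30 °C and 51.65 and 47.7 FPKM at 23 °C, with a difference of 0.32 (SE 0.50). In dis3-4 alone U3 was at 8.31 and 14.2 FPKM at 30 °C and 3.25 and 2.64 FPKM at 23 °C. Selection for polyA keeps only the polyadenylated part of such RNAs, so their FPKM do not measure the mature pool.

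Of 1397 tested long noncoding RNAs, 0 were called between the temperatures. Both 30 °C libraries lay above both at 23 °C for 318, or 22.8%, and below for 169 (24.8% and 10.6% of all features). After size factors these were 232 and 230 (17.1% and 17.5% of all features). The median difference as deposited was 0.07. Against wild type 329 were higher and 20 lower at 30 °C (11.7% and 2.22% of all features), and 288 were higher and 24 lower at 23 °C (9.42% and 2.38%). Features chosen in other libraries gave like values. Of the 597 (9.81%) called higher in the libraries labelled rrp6Δ than in wild type, the median difference between the temperatures in rrp6-cat dis3-4 was 0.11, with 27.8% above in both libraries and 9.72% below. For the 297 (4.88%) called higher in rrp6-cat the median was 0.04, with 23.9% above and 14.5% below. The 388 (6.38%) called higher in dis3-4 at 30 °C had a median of 0.09, with 27.8% above and 12.4% below. None of these features was called between the temperatures.

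**Figure D3:**
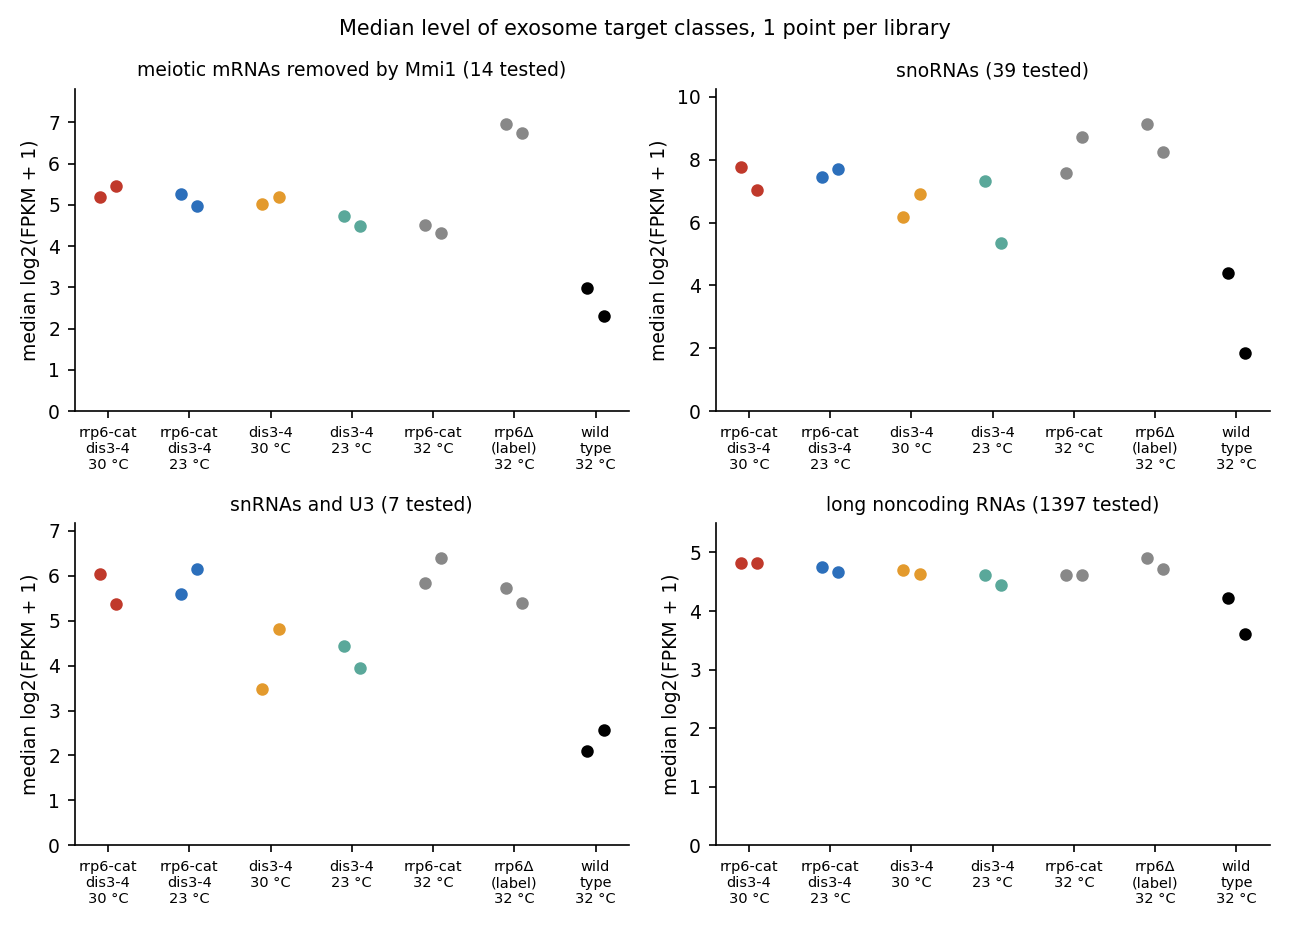
Median log2(FPKM + 1) of the tested members of 4 classes of exosome substrate in each of the 14 libraries, 1 point per library, with rrp6-cat dis3-4 at 30 °C and at 23 °C on the left and wild type on the right. In each class the 30 °C and 23 °C points of rrp6-cat dis3-4 lie close together and above wild type.

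The features with the largest statistics are given as descriptions, since none was called, and only those that averaged at least 5 FPKM at either temperature and whose groups did not overlap were ranked. On the higher side, SPNCRNA.512, a long noncoding RNA that overlaps another on the opposite strand, had 9.61 and 10.4 FPKM at 30 °C and was listed at 0 in both 23 °C libraries. It was present in dis3-4 at both temperatures, at 12.7 and 17.3 FPKM at 30 °C and 3.3 and 16.1 FPKM at 23 °C. SPAC922.09, an uncharacterized protein-coding gene, was at 32.5 and 18.8 FPKM at 30 °C and 5.63 and 6.69 FPKM at 23 °C, with a log2 difference of 1.85 (SE 0.44, limma unadjusted p = 0.0012). Its value without one library at a time ran between 1.47 and 2.23, and wild type listed it at 0 in both libraries. SPAC3A12.08, also uncharacterized, was at 50.45 and 70.6 FPKM at 30 °C against 28.6 and 22.3 FPKM at 23 °C (log2 difference 1.21, SE 0.36). The groups did not overlap in either case.

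Among better-known genes, cdc45 (SPAC17D4.02), a factor that loads with the replication helicase at origins, was at 33 and 31.5 FPKM at 30 °C and 19.45 and 14.7 FPKM at 23 °C. Its log2 difference was 0.89 (SE 0.28, unadjusted p = 0.0083), while in dis3-4 it was -0.01. rpl15 (SPCC576.11), a protein of the large ribosomal subunit, was at 505 and 525 FPKM at 30 °C and 308 and 348 FPKM at 23 °C, a log2 difference of 0.65 (SE 0.20). SPNCRNA.575, a noncoding RNA antisense to a neighbour, was at 89.2 and 81.8 FPKM at 30 °C against 47.1 and 52.6 FPKM at 23 °C, a log2 difference of 0.77 (SE 0.23). prl13, another noncoding RNA, was at 25.95 and 42.1 FPKM at 30 °C against 14.3 and 3.4 FPKM at 23 °C, and its 23 °C libraries were far apart. The genes new14, mug103 and SPAC29A4.22 were listed at 0 in at least 1 of the 23 °C libraries, and reached 24.7, 19.5 and 7.32 FPKM in their higher 30 °C library.

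On the lower side, rhp6 (SPAC18B11.07c), the ubiquitin-conjugating enzyme of the Rad6 family, was at 127 and 132 FPKM at 30 °C and 178 and 209 FPKM at 23 °C. Its log2 difference was -0.57 (SE 0.20, limma unadjusted p = 0.015), against 0.25 in dis3-4. SPAC513.07, annotated as a flavonol reductase family protein, was at 82.1 and 77.6 FPKM at 30 °C against 147 and 122 FPKM at 23 °C (log2 difference -0.74, SE 0.24). tam8 (SPBC3H7.18), whose role is not given here, stood at 17.1 and 13.9 FPKM at 30 °C and 52 and 49.4 FPKM at 23 °C, a log2 difference of -1.65 (SE 0.59, unadjusted p = 0.016). In dis3-4 it stood the other way round, at 33.9 and 46.3 FPKM at 30 °C and 8.83 and 21.5 FPKM at 23 °C, with a difference of 1.45 (SE 0.59). The difference between those shifts was -3.10 (SE 0.84), which limma did not call, with an unadjusted p of 0.0031 and an adjusted p of 1.0. SPBC26H8.13c, a Siva family protein, was at 14.2 and 14.05 FPKM at 30 °C against 29.1 and 21.7 FPKM at 23 °C.

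The noncoding RNAs SPNCRNA.1540, SPNCRNA.1267 and SPNCRNA.163 were also lower in both libraries, with log2 differences of -1.51 (SE 0.59), -1.08 (SE 0.41) and -1.62 (SE 0.62). For SPNCRNA.163 the 30 °C libraries disagreed, at 35.3 and 8.81 FPKM against 59.35 and 54.8 FPKM at 23 °C, and the value moved between -2.56 and -0.68 as single libraries were left out. SPAC1B3.20, uncharacterized, was at 52.8 and 63 FPKM at 30 °C against 92.5 and 98.6 FPKM at 23 °C (log2 difference -0.72, SE 0.29). The remaining 4 of the rule, prl37, prl28, SPAC212.06c and the methionine transfer RNA SPATRNAMET.02, were under 1 FPKM in at least 1 of the 30 °C libraries. Named features that overlap a neighbour on the opposite strand, such as SPNCRNA.512, cdc45 and SPAC1B3.20, can share fragments with it where counting did not use strand. Others, such as mpp6, mei4, cid14, rps2, new14, SPAC29A4.22 and prl28, overlap a neighbour on the same strand, where strand cannot separate the fragments.

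**Figure D4:**
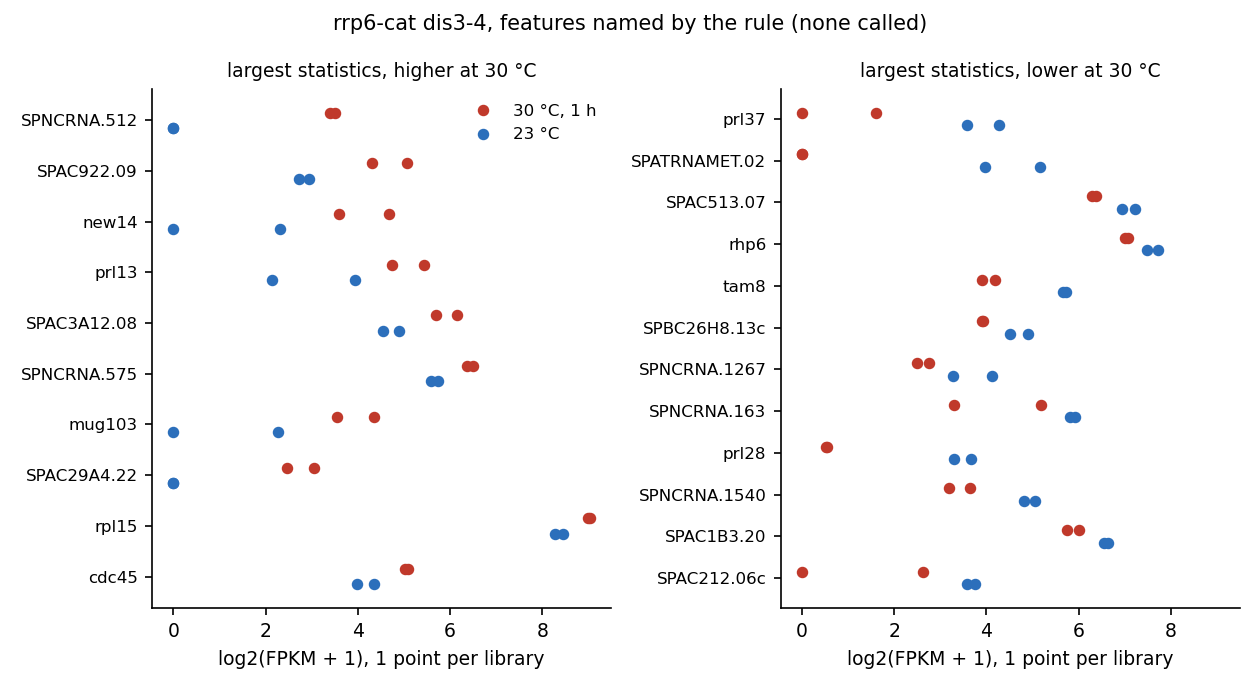
Log2(FPKM + 1) of each rrp6-cat dis3-4 library (horizontal axis) for the features with the largest limma statistics among those that averaged at least 5 FPKM at either temperature and whose groups did not overlap, with the 30 °C libraries above the 23 °C libraries in each row. The rule fixes that the groups of a row do not overlap, and none of these features was called.

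Some of the features with the largest differences were listed at 0 in both libraries of 1 temperature. Both 23 °C libraries were under 0.001 FPKM for 15 tested features that had at least 1 FPKM in both 30 °C libraries, and 6 features had the opposite pattern. For 14 of the 15 and 6 of the 6, the values of the replicates with signal stood in a ratio of whole numbers no larger than 4, within 0.5%, once the libraries' relative depth was taken out. Ratios of this kind are those that a few fragments in each library give. For SPNCRNA.512 the ratio was 3 to 4 and for SPATRNAMET.02 it was 1 to 2. The protein-coding genes among the 15 included ufd1, a ubiquitin-handling factor, mag1, a DNA glycosylase, and yip11, and the 6 included the autophagy gene atg12. The 23 °C libraries were the shallower ones, and the part of depth in these patterns was not tested.

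Chaperone mRNAs, which heat raises in most organisms, stood near level in rrp6-cat dis3-4. Of the 18 tested cytosolic chaperone and heat shock genes none was called, 4 stood above at 30 °C in both libraries and 5 below (24.8% and 10.6% of all features), and the median log2 difference was -0.05, which was 0.06 without 30 °C replicate 1 and 0.02 without 23 °C replicate 1. Size factors left 1 above and 9 below (17.1% and 17.5% of all features). Summed over the list, the FPKM were 8395 and 9016 at 30 °C and 9144 and 9098 at 23 °C. In dis3-4 the sums were 13770.0 and 11150.0 FPKM at 30 °C and 8554 and 7906 at 23 °C. There, 13 of the 18 stood above at 30 °C in both libraries and 1 below (14.1% and 17.6% of all features), the median difference was 0.84, and 9 had an unadjusted p under 0.05, all of them higher. Leaving out single dis3-4 libraries kept that median between 0.62 and 0.86, with 4 such members without 30 °C replicate 1. limma called 0 features in dis3-4 as well, which is 0.00%, with 273 (4.49%) at an unadjusted p under 0.05, 164 higher (2.70%) and 109 lower (1.79%), and a smallest adjusted p of 0.068. Without dis3-4 30 °C replicate 1 those were 108 higher and 331 lower.

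ssa1 (SPAC13G7.02c), a heat-induced Hsp70, was at 243 and 282.5 FPKM at 30 °C and 319 and 319 FPKM at 23 °C in rrp6-cat dis3-4, a log2 difference of -0.28 (95% interval -0.91 to 0.35). In dis3-4 it was at 316 and 239.7 FPKM at 30 °C and 129 and 98.4 FPKM at 23 °C, a difference of 1.28 (95% interval 0.65 to 1.91). At 23 °C the double mutant held ssa1 at values as high as those of dis3-4 at 30 °C. The difference between the shifts was -1.56 (SE 0.41, limma unadjusted p = 0.0025, adjusted p = 0.97). The naming rule also took hsp3103 and sks2, both higher at 30 °C in both double mutant libraries. Their log2 differences were 0.33 (SE 0.29) and 0.22 (SE 0.25), against 0.04 (SE 0.29) and -0.18 (SE 0.25) in dis3-4. The next 5 genes were picked after their values were seen. sti1, a co-chaperone that links Hsp70 and Hsp90, was at 269 and 255 FPKM at 30 °C and 294 and 270.3 FPKM at 23 °C in the double mutant. In dis3-4 it was at 482.5 and 405 FPKM at 30 °C and 203 and 205.5 FPKM at 23 °C, and the shifts differed by -1.22 (SE 0.33, unadjusted p = 0.0035).

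hsp104, the disaggregase that works with Hsp70, gave 189 and 217 FPKM at 30 °C and 226.5 and 225 FPKM at 23 °C in rrp6-cat dis3-4. The corresponding values in dis3-4 were 212 and 165 FPKM at 30 °C and 104.5 and 89.95 FPKM at 23 °C. hsp16, a small heat shock protein, gave 428 and 349.8 FPKM at 30 °C against 435.5 and 419.6 FPKM at 23 °C in the double mutant and 1204 and 469 FPKM at 30 °C against 317 and 309.9 FPKM at 23 °C in dis3-4, where its 30 °C libraries were far apart. wos2, the p23 co-chaperone of Hsp90, gave 594 and 794 FPKM at 30 °C against 680.5 and 623 FPKM at 23 °C in the double mutant and 1327 and 1410.0 FPKM at 30 °C against 761 and 756 FPKM at 23 °C in dis3-4. The mRNA of hsf1, the heat shock transcription factor, was at 85.8 and 88.9 FPKM at 30 °C and 77.7 and 79.95 FPKM at 23 °C in rrp6-cat dis3-4, and at 54.1 and 39.6 FPKM at 30 °C and 56.3 and 46 FPKM at 23 °C in dis3-4.

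Chaperones of mitochondria and the endoplasmic reticulum gave similar counts. Of 8 tested, 1 stood above at 30 °C in both libraries of rrp6-cat dis3-4 and 1 below (24.8% and 10.6% of all features). After size factors 0 stood above and 2 below (17.1% and 17.5% of all features). The median was 0.04, which size factors turned to -0.04 and the loss of 30 °C replicate 2 to -0.05. In dis3-4 the counts were 5 above and 0 below (14.1% and 17.6% of all features), with a median of 0.60. After size factors they were 6 and 0 (17.9% and 15.2% of all features). The mitochondrial Hsp70 partner mdj1 was at 22.3 and 22.95 FPKM at 30 °C and 29.7 and 26.6 FPKM at 23 °C in the double mutant, against 44.7 and 30.9 FPKM at 30 °C and 17.7 and 24.4 FPKM at 23 °C in dis3-4. bip1, the Hsp70 of the endoplasmic reticulum, was at 291 and 280.5 FPKM at 30 °C and 262 and 252 FPKM at 23 °C in the double mutant. The shift of the double mutant minus that of dis3-4, in a test in which the shifts share no library, was below 0 for 15 of the 18 cytosolic and 7 of the 8 organellar chaperones. Over all features it was below 0 for 2226 of 6083 and its median was 0.15, which size factors moved to 0.01. limma called it for 0 features (0.00%), with 163 (2.68%) at an unadjusted p under 0.05, 85 above 0 (1.40%) and 78 below (1.28%), and those below included 6 of the 18 and 3 of the 8. Without single libraries the 6 became 2 to 7 and the median over the 18, -0.76, stayed between -0.89 and -0.53. The dis3-4 libraries at 30 °C were the shallowest of the 4 dis3-4 libraries, and the part of depth in this contrast was not tested.

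**Figure D5:**
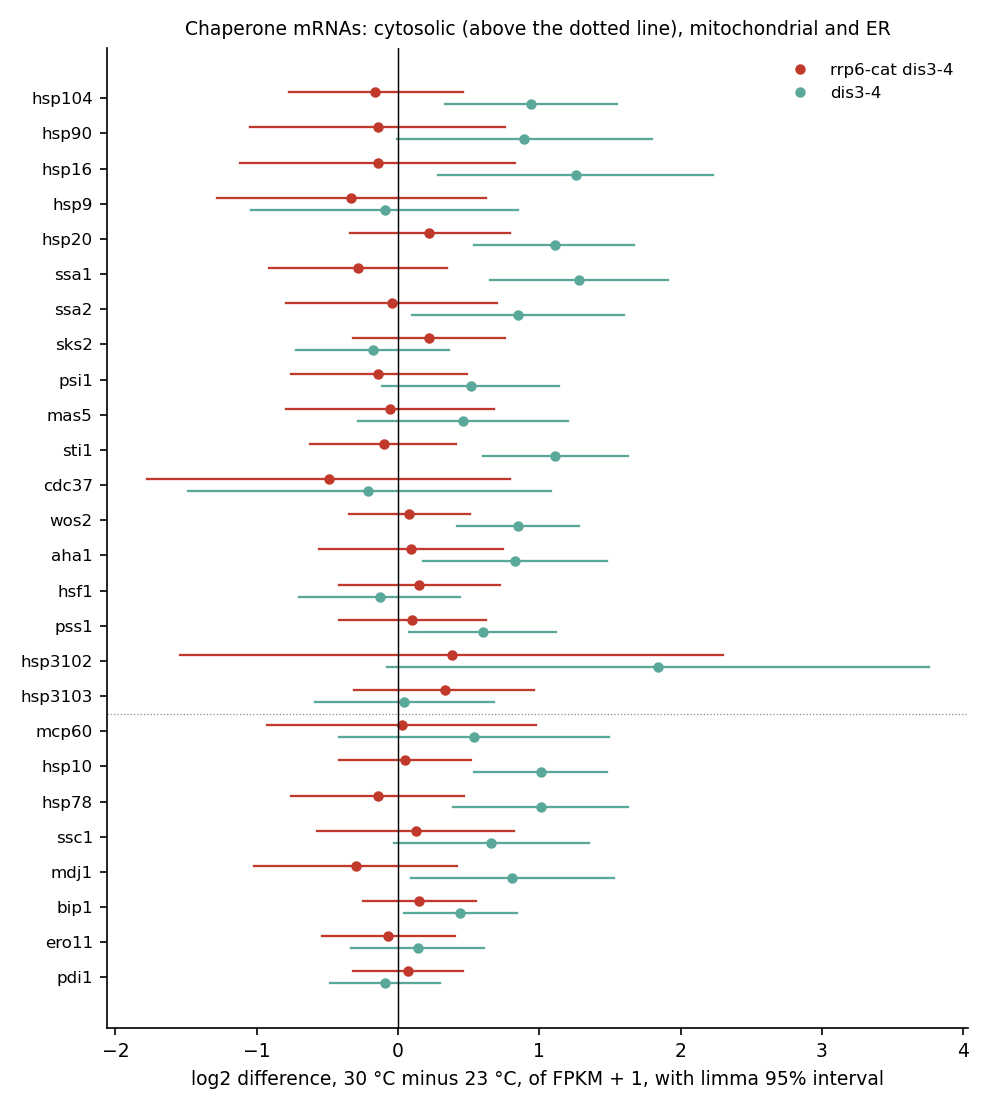
Log2 difference of FPKM + 1, 30 °C minus 23 °C, with its limma 95% interval, for 18 cytosolic and 8 mitochondrial or ER chaperone genes, in rrp6-cat dis3-4 (upper point of each row) and in dis3-4 (lower point). The points of rrp6-cat dis3-4 scatter around 0, with a median of -0.05 over the cytosolic genes, and most of those of dis3-4 lie above 0, with a median of 0.84.

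The features with the smallest p in the difference of the shifts were of several kinds, and none was called. rps1401 (SPAC3H5.05c), which encodes one of the copies of ribosomal protein uS11, was at 293 and 276 FPKM at 30 °C and 241 and 160.3 FPKM at 23 °C in rrp6-cat dis3-4. In dis3-4 it was at 64 and 50.8 FPKM at 30 °C and 132 and 189 FPKM at 23 °C. The shifts differed by 1.98 (SE 0.37, limma adjusted p = 0.56), and reads may be divided between this gene and its near-identical copy. For the next 4 the estimated shift was above 0 in dis3-4. In the double mutant it was -0.47 (SE 0.26) for SPAC513.02 and -0.07 (SE 0.38) for mug128. For SPNCRNA.687 and SPNCRNA.983 it was -0.17 (SE 0.30) and -0.22 (SE 0.31) there. The double mutant groups overlapped for all of these but SPAC513.02, so the sign of those shifts is not settled. SPAC513.02, of the phosphoglycerate mutase family, was at 35.15 and 27.85 FPKM at 30 °C and 39.75 and 48.35 FPKM at 23 °C in the double mutant, and at 28.4 and 21.6 FPKM at 30 °C and 9.88 and 8.01 FPKM at 23 °C in dis3-4. mug128, a gene with a meiotic name whose role is not given here, was at 16.2 and 26.3 FPKM at 30 °C and 28.2 and 16.7 FPKM at 23 °C, and in dis3-4 at 18.35 and 25.1 FPKM at 30 °C and 2.39 and 3.88 FPKM at 23 °C. The noncoding RNAs SPNCRNA.687 and SPNCRNA.983 differed by -2.10 (SE 0.42) and -2.17 (SE 0.44) between the shifts. SPNCRNA.687 was at 139 and 86.2 FPKM at 30 °C and 115 and 131 FPKM at 23 °C in the double mutant, against 268 and 164 FPKM at 30 °C and 54.8 and 54 FPKM at 23 °C in dis3-4. In each of these 4, the 23 °C libraries of the double mutant were above those of dis3-4.

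Genes for making ribosomes were described in 4 lists. Of the 21 tested genes for snoRNP proteins and ribosome biogenesis, 9 stood above at 30 °C in both libraries and 0 below (24.8% and 10.6% of all features), with a median log2 difference of 0.16, against 0.08 for all features, and none called. After size factors 8 stood above and 2 below (17.1% and 17.5% of all features), and the median was 0.07. In dis3-4 the counts were 1 above and 10 below, with a median of -0.32 (14.1% and 17.6% of all features), or 0 above and 9 below after size factors (17.9% and 15.2%). gar2 (SPAC140.02), the nucleolin of fission yeast, was at 43.4 and 55.6 FPKM at 30 °C and 25.4 and 24.2 FPKM at 23 °C, a log2 difference of 0.96 (SE 0.37, limma unadjusted p = 0.025). gar1, a protein of H/ACA snoRNPs, was at 99.15 and 125 FPKM at 30 °C and 86.7 and 78.15 FPKM at 23 °C in the double mutant. In dis3-4 gar1 was at 39.3 and 35.2 FPKM at 30 °C and 108 and 76.2 FPKM at 23 °C, and the shifts differed by 1.69 (SE 0.46, unadjusted p = 0.0033). nog1, a GTPase of large subunit assembly, was at 129 and 143 FPKM at 30 °C against 98.2 and 101 FPKM at 23 °C in the double mutant.

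Of 123 tested genes for cytosolic ribosomal proteins, 50 (40.7%) stood above at 30 °C in both libraries and none below, against 24.8% and 10.6% of all features, with a median of 0.13. After size factors these became 25 (20.3%) above and 1 below with a median of 0.04, against 17.1% and 17.5% of all features. Summed FPKM of the list overlapped, at 297600.0 and 262100.0 at 30 °C and 251700.0 and 276600.0 at 23 °C. rps2, of the small subunit, was at 2135 and 2943 FPKM at 30 °C and 1646 and 1652 FPKM at 23 °C (log2 difference 0.60, SE 0.25). In dis3-4 6 of the 123 stood above and 30 below (14.1% and 17.6% of all features), or 5 and 10 after size factors (17.9% and 15.2%). RNA polymerases I and III make ribosomal and transfer RNA. Of 18 tested genes for their subunits and factors, 10 stood above and 1 below in the double mutant, or 6 and 2 after size factors, with a median of 0.23. The one below was rpa43, of polymerase I, at 15.9 and 16.3 FPKM at 30 °C and 23.15 and 21.4 FPKM at 23 °C (log2 difference -0.44, SE 0.41). rpc31, of polymerase III, was at 33.7 and 40 FPKM at 30 °C and 29.9 and 17.8 FPKM at 23 °C, a log2 difference of 0.65 (SE 0.29), and rpc34, of the same enzyme, was at 102 and 82.6 FPKM at 30 °C and 73.5 and 54.7 FPKM at 23 °C. Of 14 translation factors, 7 stood above and 0 below, or 4 and 1 after size factors, with a median of 0.12. In dis3-4 2 of the 14 translation factors stood above and 7 below (14.1% and 17.6% of all features). After size factors these were 2 and 4 (17.9% and 15.2% of all features).

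Of 16 tested genes whose mRNA peaks in mitosis and cytokinesis, 0 stood above at 30 °C in both libraries and 8 below (24.8% and 10.6% of all features), with a median of -0.29. After size factors 0 stood above and 9 below (17.1% and 17.5% of all features), with a median of -0.37. None was called, and none had an unadjusted p under 0.05. cdc25, the phosphatase that starts mitosis, was at 18.5 and 18.7 FPKM at 30 °C and 30.2 and 21.2 FPKM at 23 °C (log2 difference -0.43, SE 0.35). In dis3-4 it was at 22.5 and 19.1 FPKM at 30 °C and 35.1 and 36.3 FPKM at 23 °C. Its log2 difference there, -0.75 (SE 0.35), was the lowest of the list. Over the 16 genes in dis3-4, 1 stood above and 3 below (14.1% and 17.6% of all features), with a median of -0.09. After size factors 1 stood above and 4 below there (17.9% and 15.2% of all features). cdc15, a protein of the contractile ring, was at 13 and 12.45 FPKM at 30 °C against 19 and 16.3 FPKM at 23 °C in the double mutant. A list for G1 and S phase also held genes for transcription factor subunits, such as res2. Of its 13 tested genes, 0 stood above and 4 below, as deposited and after size factors. They included cdc22, the large subunit of ribonucleotide reductase, at 73.8 and 79 FPKM at 30 °C and 116 and 100.1 FPKM at 23 °C, and mik1, a kinase that delays mitosis, at 4.98 and 4.19 FPKM at 30 °C against 9.04 and 7.52 FPKM at 23 °C. Summed over the mitosis list, the FPKM were 461.1 and 570.3 at 30 °C and 636.2 and 574.2 at 23 °C, with the higher 30 °C library just under the lower 23 °C one.

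Other cell states were read from 4 lists. Core stress genes had 2 of 17 above at 30 °C in both libraries and 7 below (24.8% and 10.6% of all features), or 2 and 9 after size factors (17.1% and 17.5%), with a median of -0.10 (0.01 without 30 °C replicate 1) and summed FPKM of 2962 and 2972 at 30 °C against 3672 and 3296 at 23 °C. ntp1, a trehalase, was at 61.55 and 63.4 FPKM at 30 °C and 94.6 and 88.2 FPKM at 23 °C (log2 difference -0.54, SE 0.29, limma unadjusted p = 0.086). ctt1, the catalase, was at 142 and 125 FPKM at 30 °C against 218 and 150.2 FPKM at 23 °C. The summed FPKM of mating and meiotic entry genes were 280.0 and 338.7 at 30 °C and 303.2 and 275.0 at 23 °C. Those of middle meiosis and sporulation were 363.8 and 385.2 at 30 °C and 372.9 and 366.5 at 23 °C, and those of nitrogen starvation 529.8 and 578.2 at 30 °C and 538.4 and 477.4 at 23 °C. In these 3 lists the ranges of the temperatures overlapped. mei3, which starts meiosis, was at 6.59 and 7.51 FPKM at 30 °C and 6.06 and 2.54 FPKM at 23 °C, and was not at 0 in any of the 4 libraries.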

How the data were processed

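The authors deposited FPKM for 7027 features in 14 polyA libraries, made with TopHat2 2.1.0, Bowtie2, Cufflinks 2.2.1 and Cuffnorm on build ASM294v2, per the submitters' processing notes. The sources used here do not name the annotation, the library scaling or read totals. Values were used as log2(FPKM + 1), which understates fold changes at low FPKM, and 6083 features with a mean of at least 1 FPKM were tested. Limma 3.58.1 (R 4.3.3) fitted 7 group means with an intensity trend (7 residual degrees of freedom), with Benjamini-Hochberg adjustment over all features. The script was tested on simulated data. Genes were named from RefSeq by ID (6839 matched).

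Named features were rrp6, dis3, the 5 smallest p in the difference of shifts and, only among features that averaged at least 5 FPKM at either temperature and whose groups did not overlap, the 10 largest statistics in each direction, the 6 largest among protein-coding genes and up to 3 per list. Members, lists and rules were chosen with earlier results of these data known. The labels do not say that replicates were separate cultures, so the p-values cover only differences among these libraries, which may be technical. A planned promoter motif search was not run, since no feature was called and the reference is another build. Coordinates, the Cuffdiff table and the 3 libraries with ligated 3′ ends were not used here. Alternatives changed the scaling, pseudocount, filter, libraries fitted, trend, weights and replicate block.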

Additional observations from a re-analysis of the deposited data

How the results depend on the processing

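For rrp6-cat dis3-4, 30 °C against 23 °C, limma called 0 features under every alternative run except 2. Without a filter on low values it called 2, both higher, SPCC1672.14 and SPBCPT2R1.10, and without the intensity trend it called 1, also higher, SPCC1672.14. SPCC1672.14 had 6.06 and 3.68 FPKM at 30 °C and SPBCPT2R1.10 had 1.52 and 1.23 FPKM, and both were listed at 0 in the 23 °C libraries. For dis3-4, 4 features were called with size factors (sti1, mug128, SPNCRNA.687 and SPNCRNA.911), 4 without the 2 wild type libraries, 4 with only the 8 libraries of strains with dis3-4, and 1 without a filter. The difference of the shifts gave 3 without a filter and 1 without the trend. Leaving out single libraries gave 0 to 0 calls in rrp6-cat dis3-4, 0 to 1 in dis3-4 (1, the noncoding SPNCRNA.508, without dis3-4 23 °C replicate 1) and 0 to 0 in the difference. With array quality weights 382 features of rrp6-cat dis3-4 had an unadjusted p under 0.05, with a smallest adjusted p of 0.063. The causes were not tested.

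Deviations of same-numbered libraries correlated at -0.076 between the temperatures of rrp6-cat dis3-4 and at -0.022 in dis3-4, and over all 21 pairs of groups at -0.154 to 0.315, the highest between rrp6-cat and the libraries labelled rrp6Δ, so the numbers were not taken to pair the samples. With the number as a replicate block, 0 features were called in the shift of either strain and in their difference, whether the block ran over all libraries or within strains. The 30 °C against 23 °C difference in rrp6-cat dis3-4 was not called for any of the 116 named features under any alternative run. Leaving out single libraries changed the sign of 3: SPNCRNA.983 ran between -0.58 and 0.14 and SPNCRNA.687 between -0.51 and 0.17, each positive without 30 °C replicate 2, and mug128 ran between -0.43 and 0.29, positive without replicate 1 of 30 °C or of 23 °C. Of the list medians, 51 of 594 values moved by more than the spread. Of the features at an unadjusted p under 0.05 in rrp6-cat dis3-4, 56.6% were higher at 30 °C after size factors and 54.6% after quantile normalization. Counts of list members with groups that do not overlap after size factors and quantile normalization were chosen after seeing the data. Groups of 2 libraries and low FPKM limit the precision, and intervals are widest under 5 FPKM. One alternative gave no value: with a mean of at least 5 FPKM no Tf2 retrotransposon copy was left to describe.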

Other observations

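Genes for nutrient uptake, metabolism and chromatin are described here by the same measures, beside 24.8% of all features above and 10.6% below as deposited and 17.1% and 17.5% after size factors, and limma called none of them between the temperatures. Phosphate genes had 4 of 7 above at 30 °C in both rrp6-cat dis3-4 libraries and 0 below, also after size factors, with a median log2 difference of 0.32. pho1, the secreted acid phosphatase, was at 201.5 and 221 FPKM at 30 °C and 162 and 133 FPKM at 23 °C (log2 difference 0.53, SE 0.27), and in dis3-4 at 149 and 164 FPKM at 30 °C and 80.1 and 67.5 FPKM at 23 °C. pho84, the phosphate transporter, was at 163 and 187 FPKM at 30 °C and 123 and 133 FPKM at 23 °C, and in dis3-4 at 28.85 and 48.05 FPKM at 30 °C and 46.1 and 28.3 FPKM at 23 °C. tgp1, the transporter of glycerophosphodiesters, was at 86.6 and 79.7 FPKM at 30 °C against 71.6 and 61.1 FPKM at 23 °C in the double mutant. For all 3 the groups of the double mutant did not overlap. Iron and copper genes had 4 of 18 above and 0 below, or 3 and 2 after size factors, with a median of 0.18. The iron permease gene fip1 was at 23.9 and 29.4 FPKM at 30 °C and 15.2 and 14.75 FPKM at 23 °C (log2 difference 0.79, SE 0.69). Zinc genes had 1 of 6 above and 0 below, and sterol and fatty acid genes 5 of 20 above and 0 below, or 2 and 3 after size factors. Glycolysis and fermentation genes had 2 of 14 above and 3 below, or 1 and 5 after size factors, and pgk1, phosphoglycerate kinase, was at 1044 and 1249 FPKM at 30 °C against 1337 and 1704 FPKM at 23 °C.

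Histone genes had 3 of 9 above at 30 °C in both libraries and 1 below, with hta2, a histone H2A gene, at 373.5 and 403 FPKM at 30 °C and 302 and 282 FPKM at 23 °C. In dis3-4 its libraries were at 263 and 159 FPKM at 30 °C and 113 and 262 FPKM at 23 °C, with overlapping groups. Of 18 RNAi and heterochromatin genes, 5 stood above and 1 below, or 3 and 1 after size factors. clr4, the H3K9 methyltransferase gene, was the one below, at 10.8 and 9.28 FPKM at 30 °C and 15.45 and 11.9 FPKM at 23 °C. Cytoplasmic mRNA decay genes had 4 of 22 above and 2 below, or 3 and 9 after size factors, with a median of 0.03 that size factors turned to -0.05. Of 29 tested nuclear transfer RNAs, which polyA selection takes only when they carry a tail, 3 stood above and 3 below. SPATRNASER.01 was at 51.15 and 24.9 FPKM at 30 °C and 0 and 14.7 FPKM at 23 °C. Of 12 mitochondrial transcripts, 1 stood above and 1 below, or 1 and 2 after size factors.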
